A study of Mus musculus with 8 samples.

Results

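Low-fold peaks over raised local background are peaks whose fragment number at the summit stands less than 3.5-fold above the fragment number of their surroundings, although the caller gave them a significant p-value. They were selected on measured values, namely the deposited fold enrichment of each of 4 peak lists, keeping peaks under 3.5 on chromosomes 1 to 19, X and Y. The rule found 53 of 36243 peaks, and these merged, with an overlap of at least 1 bp, into 40 regions of 28843 regions of any fold. The 40 regions fell into 23 sites when regions within 100 kb of each other were joined. The lists come from chromatin immunoprecipitation and sequencing of H3R17me2a, the asymmetric dimethylation of arginine 17 of histone H3, in PCM1-positive nuclei sorted from hearts of neonatal mice. All mice were Carm1fl/fl, so the controls carried the floxed alleles too, and each received an AAV9 vector on postnatal day 1. AAV9-Cre gave the Carm1 knockout group (2 ChIP libraries) and AAV9-GFP the control group (2 ChIP libraries), and the hearts were mosaic, with cells that had not taken up the virus among those sorted. The labels do not say whether replicates were separate animals, so every p-value below measures the spread between libraries only, which may be technical. The 4 input libraries have no peak list of their own, and the sources used here do not say how they entered the calling.

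Carm1 (also called Prmt4) is an arginine methyltransferase that acts as a transcriptional coactivator, and H3R17me2a is one of the histone marks it places. A peak caller compares the fragments piled up at a position with the number expected from the neighbourhood or from an input. Where a sequence is present in many copies in the animal but in few copies in the genome assembly, reads of all copies are placed on the assembled ones, so that signal and background are both high there. Known places of this kind in the mouse are satellite repeats beside the centromeres, which lie at one end of the autosomes and of X. Others are ribosomal RNA gene arrays, recently duplicated gene clusters, and the pseudoautosomal region that the X and Y chromosomes share.

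One library stood apart before any comparison. Knockout 1 had the fewest peaks (4980, against 12990 in control 1, 8742 in control 2 and 9531 in knockout 2) and the highest commonest local background (0.608 fragments, against 0.395, 0.47 and 0.367), and it gave 26 of the 53 low-fold peaks. Its part in each result was followed by leaving it out. Within the gene span, peaks of any fold were found in 0 of the 5 defining cardiomyocyte markers (Tnnt2, Tnni3, Myh6, Actn2 and Pcm1). In the wider list of 10, 2 had one (Ryr2 and Ttn). So had 4 of 11 cardiac transcription factors and 6 of 10 calcium handling genes, Ryr2 again among the latter. Among markers of other cell types, 0 of 4 for fibroblasts, 2 of 4 for endothelium (Pecam1 and Tek) and 2 of 4 for macrophages (Csf1r and Adgre1) had one. Gene length was not allowed for and the share of all genes with a peak was not computed, so no cell type is read from these counts.

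The low-fold region that a RefSeq promoter window overlaps is shown first, because its letters show a repeat directly; no window overlaps another low-fold region. It lies at chr4:118547143-118548710 (mm10) over Gm40237, a long non-coding RNA gene annotated from 118547139 to 118548256, and RefSeq gives 2 promoter windows for that gene (build GRCm38.p6, the assembly of mm10). The window inside the region, chr4:118547156-118547455 on the plus strand, is printed 5′ to 3′ with its commonest 20-base word, TGGGCGTGCAGGAGAAGCTG, in capitals.
Gm40237, inner window: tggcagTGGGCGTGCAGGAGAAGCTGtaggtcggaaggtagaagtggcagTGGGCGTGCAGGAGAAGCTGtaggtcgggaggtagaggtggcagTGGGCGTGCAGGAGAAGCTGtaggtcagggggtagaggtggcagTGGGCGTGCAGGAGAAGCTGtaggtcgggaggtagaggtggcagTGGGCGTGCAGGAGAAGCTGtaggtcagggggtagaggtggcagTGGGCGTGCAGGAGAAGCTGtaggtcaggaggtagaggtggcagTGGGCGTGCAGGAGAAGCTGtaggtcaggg
The word occurred 7 times, each 44 bases after the one before. The window therefore held 6 full copies of a 44-base unit, which are printed below with the bases that differ from copy 2 in capitals.
copy 1: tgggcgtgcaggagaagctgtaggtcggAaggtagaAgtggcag
copy 2: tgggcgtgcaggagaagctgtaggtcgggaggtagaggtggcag
copy 3: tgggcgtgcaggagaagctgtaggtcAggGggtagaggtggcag
copy 4: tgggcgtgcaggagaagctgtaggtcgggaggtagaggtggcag
copy 5: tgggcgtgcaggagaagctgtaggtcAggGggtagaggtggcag
copy 6: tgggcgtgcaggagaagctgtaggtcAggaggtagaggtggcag
Copies 2 and 4 were equal, and no copy differed from copy 2 at more than 2 of the 44 positions. At a shift of 88 bases 97.6% of the window's letters matched themselves, and 1 of the 32851 promoter windows on these chromosomes, this one, reached that share at any shift of 10 to 150 bases (median over all windows 34.6%). GC content was 62.7%, against a median of 52.7%. The outer window, chr4:118546889-118547188, overlaps the region by 46 bases and shows where the array begins, with the same word in capitals.
Gm40237, outer window: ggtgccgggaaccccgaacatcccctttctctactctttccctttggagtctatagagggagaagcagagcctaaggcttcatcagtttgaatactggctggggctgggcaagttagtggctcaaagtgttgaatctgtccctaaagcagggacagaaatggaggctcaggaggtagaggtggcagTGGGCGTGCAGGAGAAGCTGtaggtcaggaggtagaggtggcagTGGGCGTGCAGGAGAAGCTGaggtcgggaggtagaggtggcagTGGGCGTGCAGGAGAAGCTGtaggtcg
Here the word occurred 3 times, from base 187 onward. The word, searched on both strands, was found in 2 of the 32851 windows (0.00609%), which are these 2 overlapping windows of Gm40237.

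At the Gm40237 array the 4 lists gave nearly the same picture. Control 1 had 218 fragments at the summit over a background of 62.9 fragments (fold 3.43), control 2 had 262 over 74.6 (3.48), knockout 1 had 329 over 94.7 (3.45), and knockout 2 had 246 over 57.6 (4.21). The threshold thus passed between knockout 2 and the other libraries. Peak widths were 1486, 1568, 1498 and 1564 bp, longer than the annotated gene, and the deposited −log10 p ran from 52.3 in control 1 to 78.3 in knockout 1. Divided by the commonest background of its list, the background at the array was 159-fold in control 1 and control 2, 156-fold in knockout 1 and 157-fold in knockout 2. These ratios differed by a factor of 1.02 at most, while the raw backgrounds followed the order of the commonest backgrounds.

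Over all members the fold ran from 1.74 to 3.48. In control 1 the 9 low-fold peaks had a lowest, median and highest fold of 2.10, 2.45 and 3.43, and in control 2 the 12 peaks had 1.86, 3.12 and 3.48. In knockout 1 the 26 peaks had 1.74, 3.06 and 3.47, and in knockout 2 the 6 peaks had 2.04, 2.77 and 3.29. Fold, p, fragments and background of members are descriptions, since the fold chose them. The background of members was raised in every case: it was at least 4.54 times the commonest background of the list, with a median of 31.3 times and a highest value of 3395 times. Their summits held a median of 50, 49.5, 35 and 51 fragments in control 1, control 2, knockout 1 and knockout 2, against 7, 7, 8 and 7 at the other peaks. Although the folds were low, −log10 p reached 52.3, 1264, 80.4 and 14.3 in the same order, and 28 of the 53 peaks had a −log10 q under 5.

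**Figure D1:**
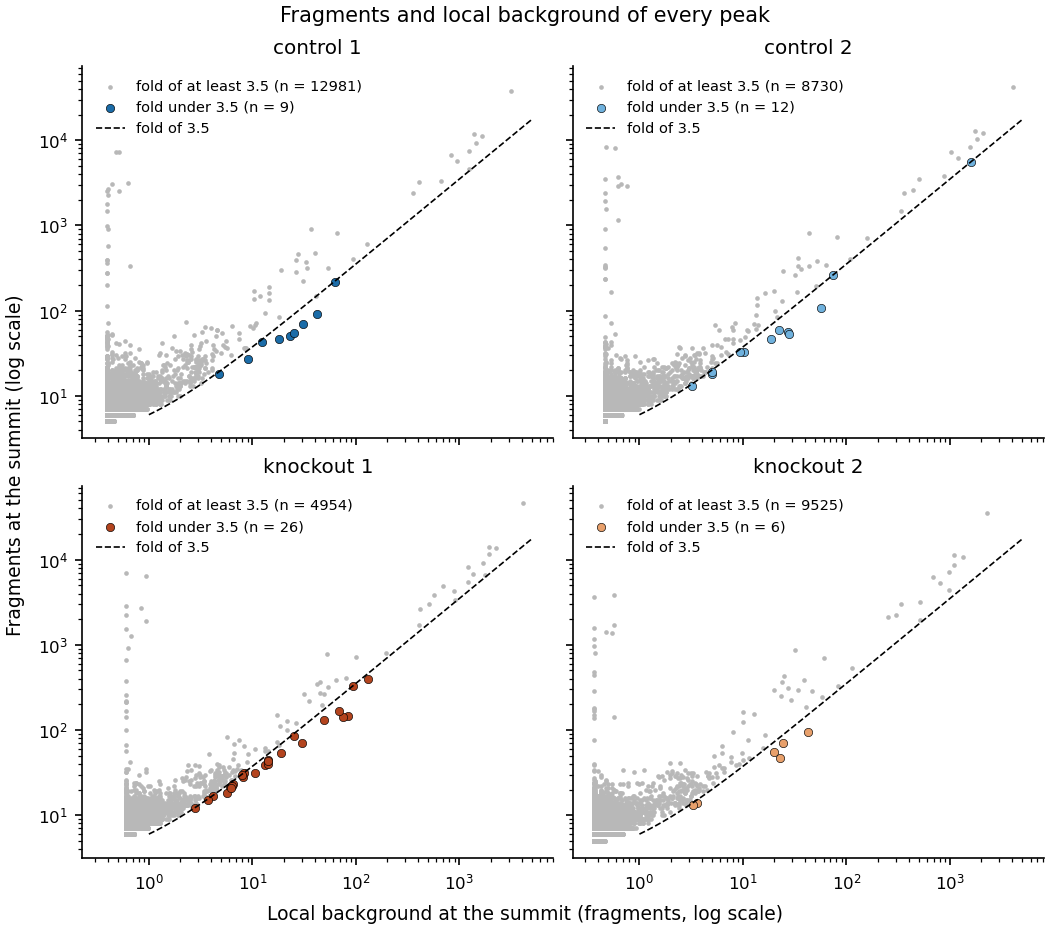
Fragments at the summit against the local background (both in fragments, log scale) for every peak, 1 panel per library; coloured points are peaks under a fold of 3.5, grey points all others, and the dashed line is a fold of 3.5. The low-fold peaks (9, 12, 26 and 6) all lie at a background above the dense cloud of grey points, and many grey points of equal or higher background lie above the line.

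The converse did not hold, and the rule takes up only a small share of the peaks over a raised background. Of the 538 peaks with a background of at least 2.76 fragments, the lowest value of any member, 53 (9.85%) were under the fold threshold. Of the 81 peaks with a background of at least 50 fragments, 9 (11.1%) were, and 0 of these 9 were in knockout 2. Some blocks of very high background lay above the threshold. An exception was the Gm33838 region described below, where control 2 had a background of 1596 fragments at a fold of 3.45. At the start of chromosome 9, from 3000062 to 3038261, peaks over backgrounds of 254 to 2234 fragments had folds of 4.14 to 10.3. At chr2:98666283-98667327 backgrounds of 2294 to 4120 fragments went with folds of 10.3 to 15.5.

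The 2 lowest folds of all lay beside ribosomal RNA sequence. On chromosome 17, 0.465 to 1.25 kb before Rn18s-rs5, a pseudogene related to the small-subunit ribosomal RNA gene, 2 regions were called. At chr17:39844892-39845105 knockout 1 had 147 fragments over 84.0 (fold 1.74) and control 2 had 107 over 57.0 (1.86). At chr17:39845578-39845889 knockout 1 alone had a peak, with 142 over 75.0 (1.88). The backgrounds were 121 to 138 times the commonest value of the list. Control 1 and knockout 2 had no peak over either region, so the site was split within both groups.

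The site with the most members lay at the far end of chromosome 13 inside Tmem267, which encodes a transmembrane protein. Its 6 regions spread over 6.07 kb, chr13:119596933-119603005, and held 10 low-fold peaks: 3 each in control 1, control 2 and knockout 1, and 1 in knockout 2. It was the only site with a low-fold peak in every list. In the region with the most fragments, chr13:119598264-119599144, control 1 had 403 fragments over 94.5 (fold 4.23), control 2 404 over 109 (3.68) and knockout 1 401 over 130 (3.07). Fragment numbers at that summit were nearly equal in these 3 libraries while the raw background rose, and of the 3 only knockout 1 fell under the threshold. Divided by the commonest background of its list, the background did not rise: it was 239, 232 and 214 times in control 1, control 2 and knockout 1. Knockout 2 had separate peaks there, and the one of lowest fold had 71 fragments over 24.4 (2.84). At chr13:119600223-119600948 fragment numbers were 84, 85, 84 and 61, with folds of 4.50, 3.82, 3.26 and 3.71 in control 1, control 2, knockout 1 and knockout 2. At chr13:119601873-119602328 control 1, control 2 and knockout 1 were all low, with folds of 2.14, 2.02 and 2.26, and knockout 2 had no peak. At the edges of the site, control 1 alone had a peak at chr13:119596933-119597408 (46 fragments over 18.2, fold 2.45), and chr13:119602664-119603005 was low-fold in control 1 (2.75) and control 2 (3.06) and called in neither knockout.

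Near the far end of chromosome 9, 10.1 to 10.8 kb before the protein-coding gene Gm39469, 2 regions held 5 low-fold peaks. At chr9:124256364-124257080 control 1 had 92 fragments over 41.7 (fold 2.18), knockout 1 had 165 over 68.9 (2.37) and knockout 2 had 95 over 42.2 (2.22). Control 2 differed, with 129 over 23.7 (5.26): its background was 50.4 times its commonest value, where the others had 106 to 115 times. At chr9:124257387-124257821 control 1 (2.10) and knockout 2 (2.69) had low-fold peaks and the other lists had no peak. Both groups were represented in each region.

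A second site on chromosome 9 held the member with the most fragments. Within Gm33838, a long non-coding RNA gene, chr9:35305252-35305575 had 4552 fragments over a background of 1237 in control 1 (fold 3.68), 5502 over 1596 in control 2 (3.45), 6613 over 1759 in knockout 1 (3.76) and 4390 over 987 in knockout 2 (4.45). Peak widths were 324 to 340 bp in the 4 lists. Control 2 alone fell under 3.5, and control 1 and knockout 1 lay just over it.

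On chromosome 17 a further pair of regions lay 33.1 and 35.8 kb after 2700054A10Rik, a long non-coding RNA gene. At chr17:13589925-13590592 control 1 had 43 fragments over 12.5 (fold 3.27), control 2 had 53 over 27.8 (1.88) and knockout 2 had 47 over 22.6 (2.04), while knockout 1 had no peak. On chromosome 11, inside Sfi1, which encodes a centrin-binding protein of the centrosome, chr11:3168668-3168980 had 70 fragments over 30.6 in control 1 (2.24) and 131 over 48.7 in knockout 1 (2.66). Its backgrounds were 77.5 and 80.0 times the commonest value, and control 2 and knockout 2 had no peak. These are 2 of the 9 sites with low-fold peaks from both groups.

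On chromosome 6 the members were the weaker peaks of a dense array. Over chr6:47660255-47759418 the lists had 27, 27, 26 and 34 peaks (control 1, control 2, knockout 1, knockout 2), of which 0, 1, 2 and 0 were low-fold. The low-fold regions lay in Gm36327 (knockout 1, fold 3.47) and in the long non-coding RNA gene Gm52861 (control 2, 3.18, and knockout 1, 3.201). At the Gm36327 region control 1 and knockout 2 had folds of 6.08 and 6.36. The array repeats in sequence: the promoter windows of Gm40367, Gm36327 and Gm40364, up to 17.3 kb apart, were equal at all 300 bases. The window is printed once, for Gm36327 (chr6:47675332-47675631, plus strand, GRCm38.p6). A read that lies wholly inside it cannot be placed among the 3 genes by its own sequence. Reads that cross its edge were not examined.
Gm36327, equal in Gm40367 and Gm40364: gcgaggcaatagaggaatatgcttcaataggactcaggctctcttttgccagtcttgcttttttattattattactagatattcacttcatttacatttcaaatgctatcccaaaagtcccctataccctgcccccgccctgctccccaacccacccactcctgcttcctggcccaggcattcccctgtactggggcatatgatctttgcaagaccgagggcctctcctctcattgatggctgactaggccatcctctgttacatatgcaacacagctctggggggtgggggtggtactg
Peaks over these 3 windows came from control 2, knockout 1 and knockout 2, with folds of 3.97 to 5.49, so the window itself was not low-fold. A similar array lay beside the chromosome 8 region 1.85 kb before Gm51591 (knockout 1 only, fold 3.10), where the windows of Gm51591, Gm51592 and Gm51594 differed at 2 to 6 of 300 bases. Of the 20 promoter windows within 20 kb of a low-fold region, 9 (45.0%) had at least 50% of their bases in 24-base words that also occur in another gene's window, against 14.7% of all 32851 windows. All 9 belong to these arrays on chromosomes 6 and 8.

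The sex chromosomes held 11 regions. They held 20.8% of low-fold peaks, against 8.62% of all other peaks. Among other peaks whose background reached the lowest member background of their list, the share was 20.3%. In knockout 2 they held 0 of 6 low-fold peaks. On X, 4 regions lay over or beyond the end of Mid1, a ubiquitin ligase gene that crosses into the pseudoautosomal region in laboratory mice, and before Erdr1. On Y, 4 lay over or beyond Mid1-ps1, the Mid1 pseudogene. The same stretch appeared on both: knockout 1 had 39 fragments over 13.2 on X (chrX:169989373-169989744, fold 2.81) and 43 over 14.2 on Y (chrY:90763653-90764018, fold 2.90). At the same regions control 1 had folds of 3.98 on X and 3.88 on Y and control 2 had 4.41 and 4.37. The values of X and Y were thus close within each of these 3 libraries, and knockout 2 had no peak at either region. After the Y positions were shifted so that the knockout 1 summits coincided, 18 of the 43 X peaks from 4 kb before to 28 kb after the summit had a Y peak of the same library with its summit within 250 bp. The knockout 1 pair that set the shift is among them by construction. The share that would match at random was not computed. Whether the paired peaks rest on the same reads was not tested, and they are not counted as independent places. Control 2 alone had a peak at chrY:90767776-90767977, with 59 fragments over 22.1 (fold 2.60), which at 202 bp was the narrowest member.

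**Figure D2:**
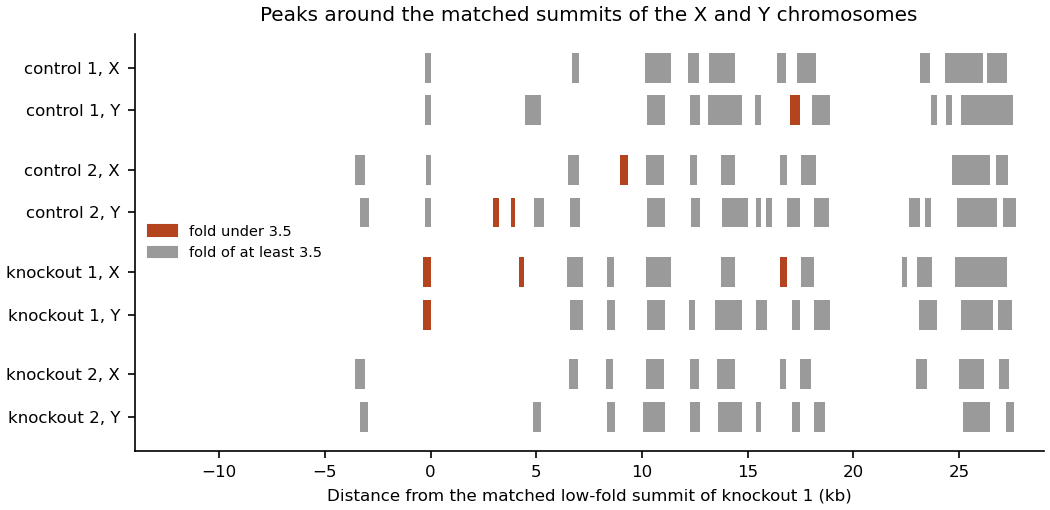
Peaks on X and Y in each library, drawn by their distance in kb from the matched low-fold summit of knockout 1; red bars are peaks under a fold of 3.5 and grey bars all others. The order of bars is similar on the 2 chromosomes, and the low-fold bars differ between libraries: 3 on X in knockout 1 and 2 on Y in control 2.

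The other 3 regions of Y, near LOC665918, 1700020D14Rik and Gm20780, were low-fold in knockout 1 alone, with folds of 2.73, 2.69 and 3.02. Control 1 also had a peak at the latter pair, with folds of 6.66 and 4.95. The remaining sites with low-fold peaks of knockout 1 alone included Dlgap2, a scaffold gene of the synapse, and Snhg14, the imprinted host transcript of small nucleolar RNAs. At the Dlgap2 region (chr8:14306820-14307317) knockout 1 had 45 fragments over 14.1 (fold 3.05), against 36 over 8.60 in control 1 (3.85), 42 over 7.95 in control 2 (4.81) and 39 over 8.63 in knockout 2 (4.16). At Snhg14 (fold 3.199), near Apba2 (3.38), near Vmn2r125 (3.41) and in the gene desert of chromosome 1 (3.10, with the nearest gene, Gm53054, 147 kb away) no other list had a peak. Near Dcdc2a, a doublecortin-domain gene, knockout 1 had 18 fragments over 5.74 (2.82) and control 1 had 27 over 3.32 (6.48). The 2 peaks overlapped and were each 223 bp wide, but they began at different bases (25050312 in knockout 1 and 25050425 in control 1). Sites with low-fold peaks in knockout 1 only numbered 11 of 23. Of the 20 regions that were low-fold in knockout 1 only, 12 had a peak of at least 3.5 in another list and 8 had none. In those 12, the 12 knockout 1 peaks had a median fold of 3.12 over a median background of 8.04. The 10 control 1 peaks had 4.31 over 3.80, the 7 control 2 peaks 4.37 over 7.95 and the 5 knockout 2 peaks 4.16 over 4.13. These medians cover different regions, since each of the other lists had peaks at only some of the 12. At each of the 7 regions with a control 2 peak, the raw background of control 2 was lower than that of knockout 1. It was 7.95 against 14.1 at Dlgap2, and 21.5 against 25.1 at chr13:119600223-119600948.

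**Figure D3:**
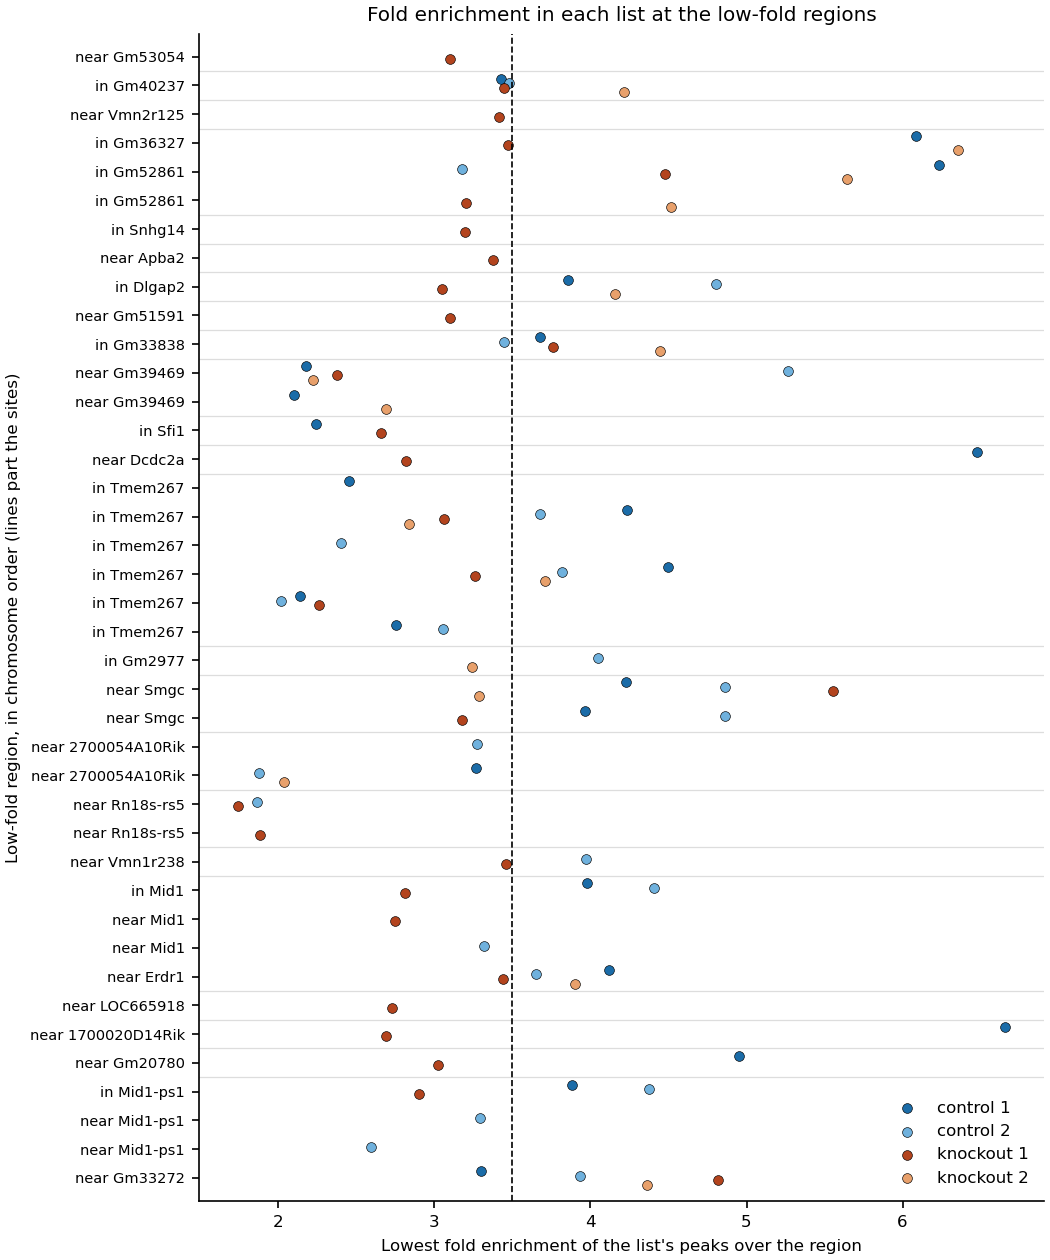
Lowest fold enrichment of each list's peaks over each of the 40 low-fold regions (horizontal axis), in chromosome order, with the overlapping or nearest gene named; points are the 4 libraries and the dashed line is 3.5. No region has 4 points left of the line, and many have points on both sides.

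Recurrence depended on what counted as a call. A low-fold peak was present in 1 list at 31 regions, in 2 lists at 5, in 3 lists at 4 and in all 4 lists at 0. With peaks of any fold, 14 regions were called in 1 list, 10 in 2, 6 in 3 and 10 in all 4, while 2.09% of all merged regions were called in all 4 lists. One region was called in both controls and neither knockout (2.43% of all regions) and 1 in both knockouts and neither control (1.09%). Of the low-fold peaks, 8 of 9, 7 of 12, 18 of 26 and 6 of 6 overlapped a peak of another list in control 1, control 2, knockout 1 and knockout 2, or 88.9%, 58.3%, 69.2% and 100%. Among other peaks the shares were 28.8%, 32.1%, 46.9% and 34.1%. The low-fold peaks were higher in 4 of 4 lists, by a mean of 43.7 percentage points (exact two-sided sign-flip test over the 4 libraries, p = 0.125, the smallest it can give; Benjamini-Hochberg adjusted over 5 tests, 0.625). An overlap counts for both lists that share it, so the 4 differences are not independent of each other. Against other peaks whose background reached the lowest member background of their list, the order turned: 367 of 389 such peaks (94.3%) recurred, and low-fold minus other was a mean of −15.9 points, lower in 3 of 4 lists (exact sign-flip p = 0.25).

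**Figure D4:**
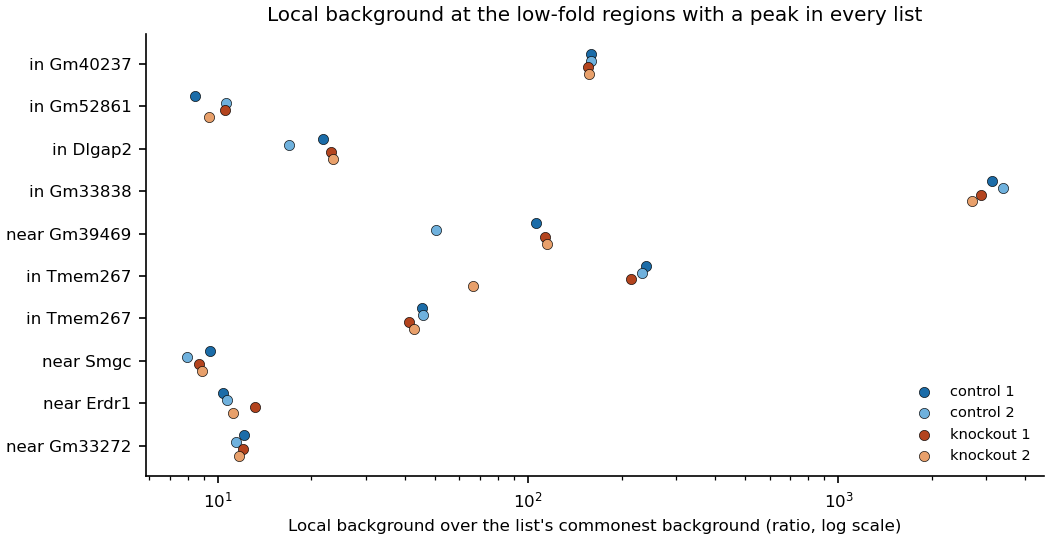
Local background divided by the commonest background of the list (ratio, log scale) at the 10 low-fold regions with a peak in every list; points are the 4 libraries. At 8 of the 10 regions the 4 ratios lie within 1.5-fold of each other.

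At the 10 regions with a peak in every list, the raised background was similar once scaled by each list's commonest value. The highest ratio exceeded the lowest by 1.02 to 1.39 times at 8 regions. The exceptions were the Tmem267 region with 403, 404 and 401 fragments (3.6 times), where knockout 2 had separate peaks, and the Gm39469 region (2.28 times), where control 2 was low. Among the other 8, the ratio was 8.44 to 10.6 at Gm52861, 16.9 to 23.5 at Dlgap2, 11.4 to 12.1 near Gm33272 and 2690 to 3390 at Gm33838.

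Chromosome starts held few members. Only 6 of 53 summits (11.3%), at 5 sites, lay within 4 Mb of the first base of a chromosome: Sfi1 on 11, Gm2977 on 14, near Vmn1r238 on 18, and near LOC665918 and 1700020D14Rik on Y. Within the lists of control 1, control 2, knockout 1 and knockout 2 they made up 11.1%, 0.0%, 15.4% and 16.7% of low-fold peaks, against 1.16%, 1.26%, 1.57% and 1.19% of other peaks, a mean difference of 9.50 points, positive in 3 of 4 lists (0 of 12 in control 2 has an exact binomial 95% upper bound of 26.5%). The exact sign-flip p was 0.25 (adjusted 0.625). Outside Y, no list had a peak that began before base 3000062, while on Y peaks began at 140627. The 4 Mb window thus held a shorter stretch with peaks on the other chromosomes than on Y. Of the other peaks whose background reached the lowest member background of their list, 39 of 389 lay within 4 Mb of the first base. Against these the mean difference was 0.054 points (exact sign-flip p = 1). That set has a floor only and is not matched in background. The opposite end held more: 24 summits (45.3%), from 5 sites, lay within 1 Mb of the farthest annotated base, namely the chromosome 13, chromosome 9, X and Y sites and the Vmn2r125 region. That share was 66.7%, 50%, 34.6% and 50%, against 1.06%, 1.25%, 1.35% and 1.11% of other peaks (mean difference 49.1 points, higher in 4 of 4 lists, exact sign-flip p = 0.125, a comparison chosen after the positions were seen). Among other peaks of raised background it was 30.3% (118 of 389). The 24 summits are not 24 independent places, since 10 of them came from the Tmem267 site.

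**Figure D5:**
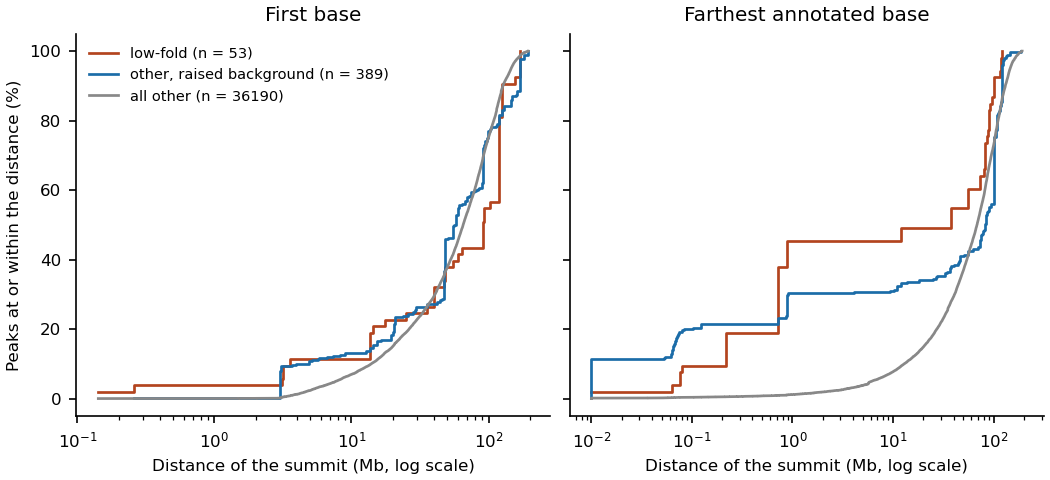
Cumulative share of summits (%) by distance in Mb (log scale) from the first base of the chromosome (left) and from its farthest annotated base (right, distances under 0.01 Mb drawn at 0.01), for the 53 low-fold peaks, 389 other peaks of raised background and all 36190 other peaks. Within 1 Mb of the far end lie 45.3%, 30.3% and 1.16% of them.

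Members were somewhat wider than other peaks in every list. The lowest, median and highest width was 203, 456 and 1486 bp in control 1, 202, 310.5 and 1568 bp in control 2, 214, 340.5 and 1498 bp in knockout 1, and 240, 347 and 579 bp in knockout 2. The medians of other peaks were 297, 293, 301 and 301 bp. Only 4 members were 800 bp or wider: the 3 peaks of the Gm40237 array and the 881 bp peak of knockout 1 in Tmem267. Width was set by the same calling step as the fold, so no test was made.

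Members did not lie in genes less often than other peaks. Of the 40 regions, 17 overlapped an annotated gene span and 11 a protein-coding one: 6 of these were the Tmem267 regions, and the others lay in Gm36327, Dlgap2, Sfi1, Gm2977 and Mid1. By summit, 45.3% of low-fold peaks lay in any annotated gene span. The share was 37.2% among all other peaks and 30.1% among other peaks of raised background. Summits of 4 of 9, 3 of 12, 7 of 26 and 2 of 6 low-fold peaks lay in protein-coding spans, 44.4%, 25.0%, 26.9% and 33.3%, against 28.6%, 29.8%, 30.1% and 29.9% of other peaks (mean difference 2.86 points, exact sign-flip p = 0.75, adjusted 1). Lists of cardiomyocyte and sort markers, cardiac transcription factors, calcium handling genes, arginine methyltransferases with their coactivators, and markers of fibroblasts, endothelium and macrophages held 54 genes, and 0 of the 40 low-fold regions overlapped one, where 0.166% of all merged regions did. Predicted genes with a Gm number overlapped 6 low-fold regions (8.3% of all merged regions). Vomeronasal receptor genes lay within 10 kb of 2 (0.572% of all), and olfactory receptor (0.908%), zinc finger (0.499%) and X or Y ampliconic genes (0.0208% and 0.0%) within 10 kb of 0. With 40 regions these counts are too small to set the members apart.

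The number of low-fold peaks did not separate the groups. It was 9 and 12 in the controls (0.0693% and 0.137% of their lists) and 26 and 6 in the knockouts (0.522% and 0.063%), so the knockout libraries lay on both sides of the controls. The means were 10.5 ± 2.12 (SD, n = 2) and 16 ± 14.1 (SD, n = 2) peaks, and the mean log2 number was higher by 0.27 in the knockouts (exact two-sided permutation test, p = 1, where 0.333 is the smallest possible). As a share of the list, low-fold peaks made up 0.103% ± 0.0481 (SD, n = 2) of control and 0.293% ± 0.325 (SD, n = 2) of knockout peaks (exact permutation p = 1). Exact binomial 95% intervals of the shares, which cover counting error only, were 0.0317% to 0.131%, 0.0709% to 0.24%, 0.341% to 0.764% and 0.0231% to 0.137%. Without knockout 1 the log2 difference was −0.79 and the number of regions fell from 40 to 20.

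Membership turned on small differences at the threshold. Just under 3.5 lay Gm33272 (3.30) and Gm40237 (3.43) in control 1, Gm33838 (3.45) and Gm40237 (3.48) in control 2, Vmn1r238 (3.46) and Gm36327 (3.47) in knockout 1, and Gm2977 (3.24) and the region near Smgc (3.29) in knockout 2. Just over it lay peaks in Smo (3.53) and near Smgc (3.56) in control 1, near Gm52862 (3.55) and in Gm40365 (3.61) in control 2, in Erdr1 (3.502) and near Gm33272 (3.54) in knockout 1, and in Gm52862 (3.64) and Tmem267 (3.71) in knockout 2. The same sites thus appear on both sides.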

How the data were processed

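H3R17me2a ChIP-seq peak lists of 4 libraries were analysed, called per library without pooling. The submitters' processing notes name Bowtie2, MACS2, DiffBind, FastQC and MultiQC and the build mm10, whose versions or settings were not given in the sources used here. Each deposited fold enrichment is a ratio of summit fragments to local background, each with 1 added, and the deposited p- and q-values are on a −log10 scale. The summit position is the offset the authors deposited with each peak.

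Fragments and background were recovered by solving fold and Poisson p-value together (tolerance 0.01 in −log10 p). Fragment numbers came out whole for all 53 low-fold peaks and for 99.94% to 99.97% of each list, and the step was tested on simulated data. Read depth is unknown. The commonest background of a list stands for its usual level.

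Coordinates are 1-based. Genes, spans and promoter windows came from RefSeq GRCm38.p6, the assembly of mm10. No genome sequence was used, so satellite repeats were not searched, and the far end of a chromosome is its last annotated gene or peak base. Tests were exact permutation or sign-flip tests over libraries, two-sided, adjusted over 5 tests by Benjamini-Hochberg. Named regions were the 12 in the most lists ordered by background percentile, the highest background and the threshold neighbours of each list, and the fullest sites of the fullest chromosomes. Other regions, among them those of single lists, were named after their values were seen. The members, lists and rules were chosen with earlier results of these data known. Alternatives were thresholds of 3 and 4, −log10 q of at least 5, autosomes and each library left out. Others were a replicate block, 50% reciprocal overlap, and other distances and joins. The far end and the comparison with other peaks of at least the lowest member background of their list were added after seeing the data. Python 3.11.15, NumPy 2.4.6, pandas 2.3.3, SciPy 1.17.1 and Matplotlib 3.10.9 were used.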

Additional observations from a re-analysis of the deposited data

How the results depend on the processing

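No result passed a test under any setting, since 4 libraries allow no p under 0.125 (0.333 between groups). Merged low-fold regions numbered 18 at a fold threshold of 3, 109 at 4 and 18 with −log10 q of at least 5, where 40 were found at 3.5, and sites numbered 10 and 54 at thresholds of 3 and 4, where 23 were found. Leaving out each library gave 20 to 38 regions, lowest without knockout 1, and 0 to 2 regions low-fold in every remaining list. The log2 difference in low-fold peaks between groups was −0.036 at a threshold of 4 and ranged from −0.79 (without knockout 1) to 1.32 (without knockout 2). The difference in share ranged from −0.0403 (without knockout 1) to 0.419 percentage points. With the replicate block, which pairs libraries of the same number, these differences stayed 0.27 and 0.189 by construction. Over 602 regions called in all lists, the correlation of same-numbered deviations in log2 fold was −0.0261. Fold is already divided by each library's own background, so this value cannot tell whether libraries of the same number were handled together. The excess recurrence of 43.7 points ranged from 34.4 to 47.7 on leaving out a library. However, it was −19.6 points against other peaks with at least the median fragments of the low-fold peaks of their list. Against other peaks of at least the lowest member background of their list it was −15.9. Both of these sets have a floor only and are not matched to the members. The excess near chromosome starts ranged from 7.50 to 13.1 points on leaving out a library. It was 6.12 at a fold threshold of 4, 5.84 within 3.5 Mb and 5.41 within 8 Mb. Against other peaks of at least the lowest member background of their list it was 0.054. The difference inside protein-coding spans was −7.00 points with −log10 q of at least 5 and ranged from −1.47 (without control 1) to 5.40 on leaving out a library. It was 10.2 at a fold threshold of 3, 8.04 with spans extended by 5 kb and 6.23 on autosomes. Against other peaks of at least the lowest member background of their list it was 12.3. The cause of these changes was not tested. Few members per list (6 to 26) and unknown read depth limit every share.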

Other observations

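Some blocks of high background held no low-fold peak. At the start of chromosome 9 (mm10), between 3000062 and 3038261, control 1 had 7 peaks over backgrounds of at least 50 fragments, control 2 had 9, knockout 1 had 11 and knockout 2 had 8. Their folds were 5.93 to 8.403, 4.37 to 7.28, 4.14 to 7.42 and 6.68 to 10.3, and the widest reached 11335 bp in control 1. On chromosome 2, chr2:98662237-98662959 had folds of 5.00, 4.35, 4.86 and 6.23 over backgrounds of 671, 881, 888 and 515 fragments in control 1, control 2, knockout 1 and knockout 2. Chromosome 14 had 106 peaks within 4 Mb of its first base, the most of any chromosome, and 1 of them was low-fold. Within 1 Mb of the farthest annotated base, 10 of 32 peaks on chromosome 13 and 5 of 12 on chromosome 9 were low-fold, against 4 of 61 on X and 4 of 60 on Y.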
